A study of Homo sapiens with 6 samples.

Results

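The subunit genes of the respiratory chain were followed across 6 RNA-seq libraries of hTert-HME1, a human mammary epithelial line immortalised with telomerase. The genes were taken by name: the 13 protein-coding genes of the mitochondrial genome, and nuclear genes whose symbol begins with NDUFA, NDUFB, NDUFC, NDUFS, NDUFV, SDHA to SDHD, UQCR or COX4 to COX7. Pseudogenes, antisense transcripts and assembly factors were left out. Of 223 rows with such a name, 80 were genes of this kind, and 73 had a mean linear value (2 raised to the deposited log2 value) of at least 10 over the 6 libraries. Those 73 are 13 mitochondrial and 60 nuclear genes, of 14763 genes tested and 57820 rows in the table. The nuclear genes divide into 36 of complex I, 4 of complex II, 8 of complex III and 12 of complex IV. All 13 mitochondrial genes passed the filter on low values.

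The cells were transfected with a control siRNA or with an siRNA against the DNA repair gene BRCA2, were left to recover, and were then cultured in a mammary epithelial medium that held EGF or lacked it; EGF is a growth factor that binds EGFR. Control siRNA with EGF gave 3 libraries, 1 at passage 4 (control P4) and 2 at passage 6 (control A and control B). BRCA2 siRNA with EGF gave 1 library at passage 4 (BRCA2 P4), and BRCA2 siRNA without EGF gave 2 at passage 6 (minus-EGF A and minus-EGF B). All groups are the same immortalised line, all were transfected, and the siRNA and the medium differ together between the control and the minus-EGF group. Control siRNA without EGF was not analysed here. The labels do not say whether replicates came from separate cultures, so the p-values speak only of library-to-library spread, part of which may be technical. Where the 3 controls form 1 group, that spread also holds the difference between passage 4 and passage 6.

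The respiratory chain passes electrons from NADH and succinate to oxygen through 4 membrane complexes and uses the energy released to pump protons. Complexes I, III and IV are built from products of 2 genomes: a few core subunits are made inside the mitochondrion from polycistronic transcripts of its own DNA, and the many remaining subunits are made in the cytosol from nuclear genes. Complex II is wholly nuclear, and the mitochondrial genes MT-ATP6 and MT-ATP8 belong to the ATP synthase that consumes the proton gradient. In proliferating epithelial cells the chain also regenerates the NAD+ and ubiquinone on which several biosynthetic steps depend.

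The mitochondrial genes are packed so tightly that neighbouring reading frames share bases, which bears on how their values can be read. The end of MT-ATP8 and the start of MT-ATP6 are the same 46 bases (GRCh38 chrM:8517-8582, plus strand, with 10 flanking bases on either side; GENCODE 29). The end of MT-ND4L and the start of MT-ND4 share 7 bases (chrM:10750-10776, plus strand, with the same flanks). The shared bases are in capitals.
MT-ATP8 to MT-ATP6: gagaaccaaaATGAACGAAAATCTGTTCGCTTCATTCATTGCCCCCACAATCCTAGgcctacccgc
MT-ND4L to MT-ND4: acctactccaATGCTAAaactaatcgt
A read over such bases belongs to 2 genes, and the authors' treatment of such reads is not given in the sources used here. So the levels of MT-ATP8 and MT-ND4L, which are 207 and 297 bases long, are uncertain.

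Nuclear copies of mitochondrial DNA are the other source of shared reads. Among rows named as nuclear copies of mitochondrial genes, 10 passed the filter, and their sequences were 94.9% to 98.7% identical to the mitochondrial gene. MTATP6P1 is 681 bases long, as MT-ATP6 is, and differs from it at 10 of them. The stretch with most differences (bases 116 to 175 counted from the first base of the gene) is printed with the differing bases in capitals, C129T, A151C and A175G with the MT-ATP6 base first.
MT-ATP6: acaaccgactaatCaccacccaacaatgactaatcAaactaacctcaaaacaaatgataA
MTATP6P1: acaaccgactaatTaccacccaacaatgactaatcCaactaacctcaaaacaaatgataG
The mean linear value of MTATP6P1 was 17.3% of that of MT-ATP6, and the gap between the 2 log2 values stayed between -2.58 and -2.51 over the 6 libraries. MTND2P28 stood at 28.0% of MT-ND2, with a gap of -1.87 to -1.78, and MTCO1P12 at 6.23% of MT-CO1, with a gap of -4.05 to -3.86. These 3 copies thus kept a nearly fixed ratio to their gene. The other copies were mixed: the gap ran from -5.17 to -5.07 for MTCO3P12, but from -10.34 to -9.49 for MTATP8P1. Whether the values of the copies came from nuclear DNA or from mitochondrial reads was not tested.

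The target of the siRNA was read first. BRCA2 stood at 10.19 in control P4, 11.25 and 11.24 in controls A and B, 10.88 in BRCA2 P4, 11.15 in minus-EGF A and 10.89 in minus-EGF B. Of the passage 4 pair, the higher level was in the library labelled BRCA2 siRNA. That label is thus not borne out by this level after recovery, and directions drawn from it hold by label only. The minus-EGF libraries lay below controls A and B but above control P4, so a lower level was not seen against every control. Sequencing depth is unknown because the table holds log2 values, and the summed linear values are a normalised total. Control P4 stood apart from its group: the SD of its gene-wise differences was 0.485 to control A, against 0.119 between controls A and B and 0.308 between the minus-EGF libraries. All 10 genes of the basal mammary list passed the filter, with KRT5 and KRT14 between 16.56 and 17.86. The list includes EGFR, the receptor of EGF, and TERT, the telomerase gene. The line was immortalised with telomerase, so TERT says nothing of cell type here. Of 8 luminal markers 5 passed, while KRT19, between 0.91 and 1.12, PGR and KIT did not. Of 6 haematopoietic markers 0 passed.

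Mitochondrial and nuclear subunit messages ran in opposite orders across the 6 libraries. The 13 mitochondrial genes held 6.45% of the summed linear values in control P4 and 6.34% in BRCA2 P4, 8.50% and 8.33% in controls A and B, 10.1% in minus-EGF A and 8.90% in minus-EGF B. The 60 nuclear genes together held 0.311% in control P4, 0.319% in BRCA2 P4, 0.282% and 0.280% in controls A and B, 0.252% in minus-EGF A and 0.235% in minus-EGF B. Both passage 4 libraries were thus lowest for the mitochondrial share and highest for the nuclear share, and both minus-EGF libraries were the reverse. The mitochondrial sum was 20.8 times the nuclear sum in control P4, 19.9 times in BRCA2 P4, 30.1 times and 29.8 times in controls A and B, 40.3 times in minus-EGF A and 37.9 times in minus-EGF B. The 6 ratios fall into 3 pairs, which are the libraries of each combination of passage and medium. Within passage 6 the siRNA and the medium change together, so their parts in the ratio cannot be told apart, and passage moves with the ratio too. No passage 4 library without EGF was analysed here. In bulk RNA, fewer cells of a kind and less RNA in each cannot be told apart.

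**Figure D1:**
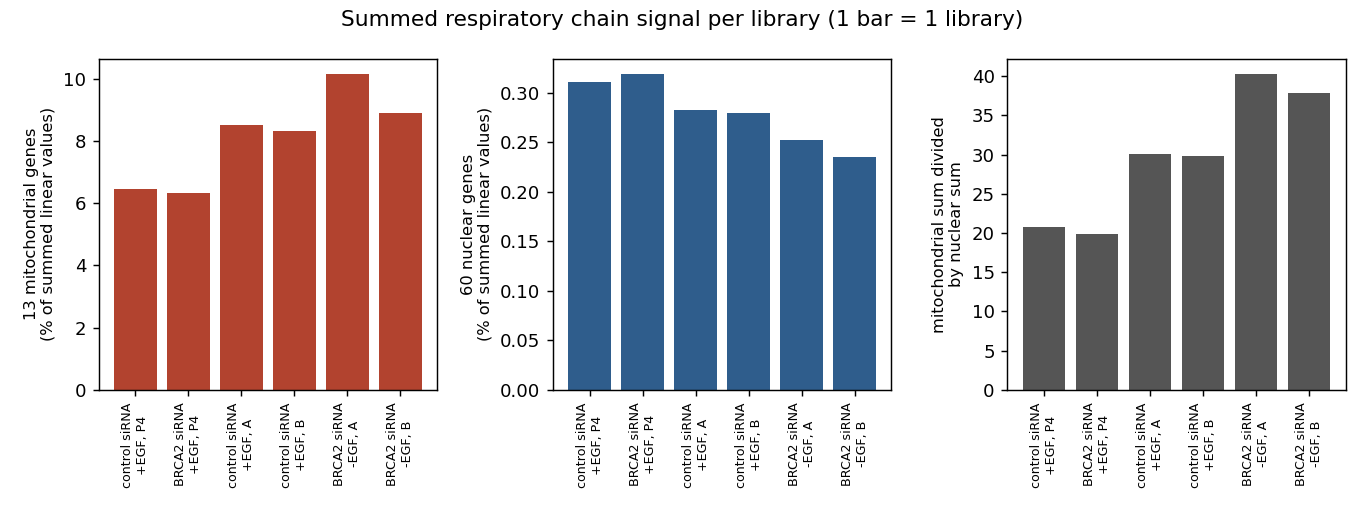
Share of the summed linear values held by the 13 mitochondrial genes (left, %), by the 60 nuclear genes (centre, %) and the ratio of the 2 sums (right), 1 bar for each library. The ratio is 19.9 and 20.8 in the passage 4 libraries, 29.8 and 30.1 in the passage 6 controls and 37.9 and 40.3 in the libraries without EGF.

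The same order was seen inside each complex that both genomes build. For complex I the ratio of mitochondrial to nuclear linear sums was 25.2 in control P4, 21.6 in BRCA2 P4, 31.6 and 31.1 in controls A and B, 43.1 in minus-EGF A and 41.6 in minus-EGF B. For complex IV it was 30.1, 32.5, 50.01, 49.9, 64.2 and 60.9 in the same order of libraries. For complex III, which has the single mitochondrial subunit MT-CYB, it was 4.09, 3.97, 6.58, 6.81, 9.57 and 7.91. In all 3 complexes the passage 4 pair was lowest and the minus-EGF pair highest.

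Measured gene by gene, the split was not carried by a few abundant messages. Each gene's value was set against its own mean over the 6 libraries. The median deviation of the 13 mitochondrial genes was -0.31 in control P4, -0.39 in BRCA2 P4, 0.07 and 0.08 in controls A and B, 0.40 in minus-EGF A and 0.13 in minus-EGF B. The median of the 60 nuclear genes was 0.18, 0.14, 0.04, 0.02, -0.11 and -0.25 in the same order. The median of all genes tested lay between -0.02 and 0.03. All 13 mitochondrial genes had their highest value in minus-EGF A; 11 were lowest in BRCA2 P4, and MT-ATP6 and MT-ATP8 were lowest in control P4. Of the 60 nuclear genes, 49 were highest in a passage 4 library (34 in control P4 and 15 in BRCA2 P4), and 49 were lowest in a minus-EGF library (36 in B and 13 in A).

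**Figure D2:**
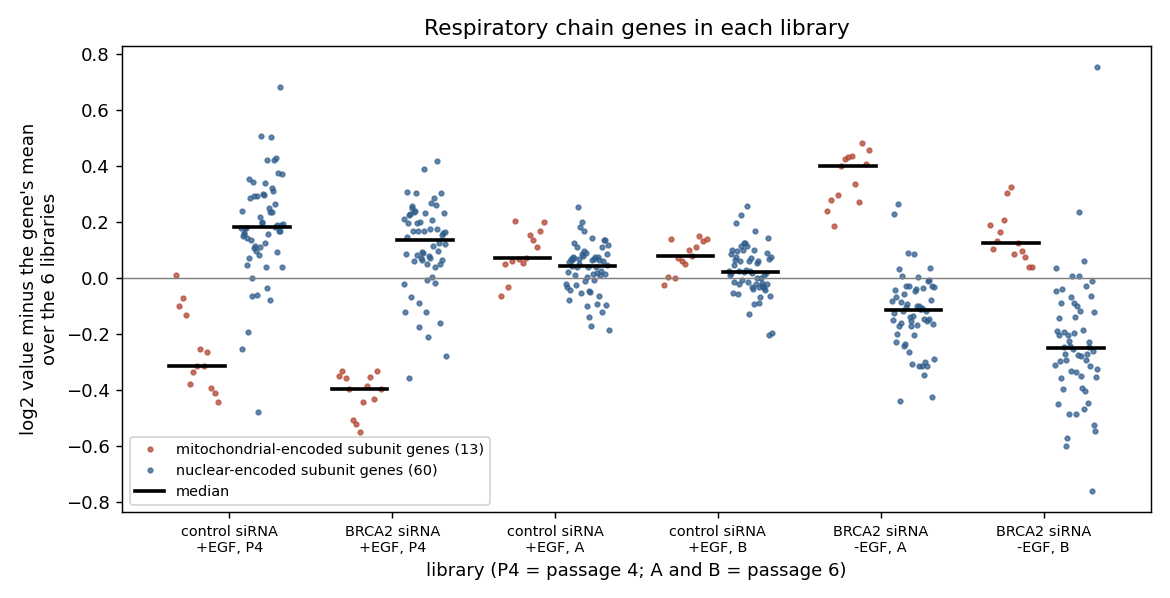
Each point is 1 gene in 1 library: its log2 value minus its mean over the 6 libraries (vertical axis), for mitochondrial genes (red) and nuclear genes (blue), with black bars at the medians. The red median runs from -0.39 in BRCA2 P4 to 0.40 in minus-EGF A, and the blue from 0.18 in control P4 to -0.25 in minus-EGF B.

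Counts of genes whose libraries do not overlap gave the same picture. Both minus-EGF libraries lay above all 3 controls for 6 of 13 mitochondrial genes (46.2%), against 18.1% of all genes tested, and below all 3 controls for 0. They lay below all 3 controls for 41 of 60 nuclear genes (68.3%), against 23.9% of all genes tested, and above for 0. Both passage 4 libraries lay below all 4 passage 6 libraries for 12 of 13 mitochondrial genes (92.3%), against 17.1% of all genes, and above for 0. They lay above all 4 for 37 of 60 nuclear genes (61.7%), against 21.5% of all genes, and below for 2, NDUFA9 and NDUFA11. These libraries share 1 culture system and the genes share each library's normalisation, so the genes are not independent replicates of a condition.

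Differences in a gene's value between libraries depend on how the libraries are scaled, and the 13 mitochondrial genes hold up to 10.1% of the signal. Scaling to the sum without mitochondrial genes lowers the values of control P4 by 0.10 on the log2 scale relative to the mean library, and raises those of minus-EGF A and B by 0.04 each. Ratios between mitochondrial and nuclear genes within a library, and the mitochondrial share of its summed values, do not change under such a scaling.

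Complex I takes 7 subunits from the mitochondrial genome, which form the proton-pumping arm in the membrane. MT-ND6, the 1 member encoded on the other strand (chrM:14149-14673, minus strand), stood at 15.41 in control P4, 15.78 and 15.77 in controls A and B, 15.17 in BRCA2 P4, 16.16 in minus-EGF A and 16.05 in minus-EGF B. MT-ND5 stood at 17.27, 17.67, 17.66, 17.08, 18.02 and 17.90 in the same order. For both genes the minus-EGF pair lay above every other library and BRCA2 P4 was lowest. MT-ND4 stood at 18.58, 18.77, 18.71, 18.32, 19.01 and 18.88, and MT-ND4L, whose reading frame runs into it, at 14.41, 14.996, 14.86, 14.28, 15.19 and 14.997. The margin for MT-ND4L was small, since control A and minus-EGF B were nearly equal. MT-ND1 stood at 17.74, 17.66, 17.70, 17.38, 17.97 and 17.92, and was the 1 mitochondrial gene for which control P4 did not lie below the passage 6 controls. MT-ND2 ran from 17.29 in BRCA2 P4 to 17.90 in minus-EGF A, and MT-ND3 from 15.58 to 16.12 in the same libraries. For MT-ND3 control B, at 16.07, lay level with minus-EGF B.

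For the mitochondrial subunits of complexes III, IV and V, both passage 4 libraries were low and the minus-EGF libraries overlapped the controls. MT-CYB, the cytochrome b of complex III, stood at 16.56 in control P4, 16.89 and 16.91 in controls A and B, 16.37 in BRCA2 P4, 17.25 in minus-EGF A and 16.90 in minus-EGF B. MT-CO1, the catalytic subunit of complex IV, stood at 18.73, 19.20, 19.12, 18.66, 19.38 and 19.17 in the same order. In both, minus-EGF A was the highest library while minus-EGF B lay among the passage 6 controls. MT-CO2, which carries the copper site that accepts electrons from cytochrome c, ran from 17.48 in BRCA2 P4 to 18.10 in minus-EGF A. MT-CO3, the third core subunit, stood at 16.84, 17.35, 17.38, 16.80, 17.71 and 17.31. MT-ATP6, part of the proton channel of the ATP synthase, stood at 17.24, 17.82, 17.78, 17.32, 18.06 and 17.69, and MT-ATP8 at 14.99, 15.63, 15.57, 15.03, 15.89 and 15.47. For MT-CO2, MT-CO3, MT-ATP6 and MT-ATP8, minus-EGF B was below both passage 6 controls and minus-EGF A above both.

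**Figure D3:**
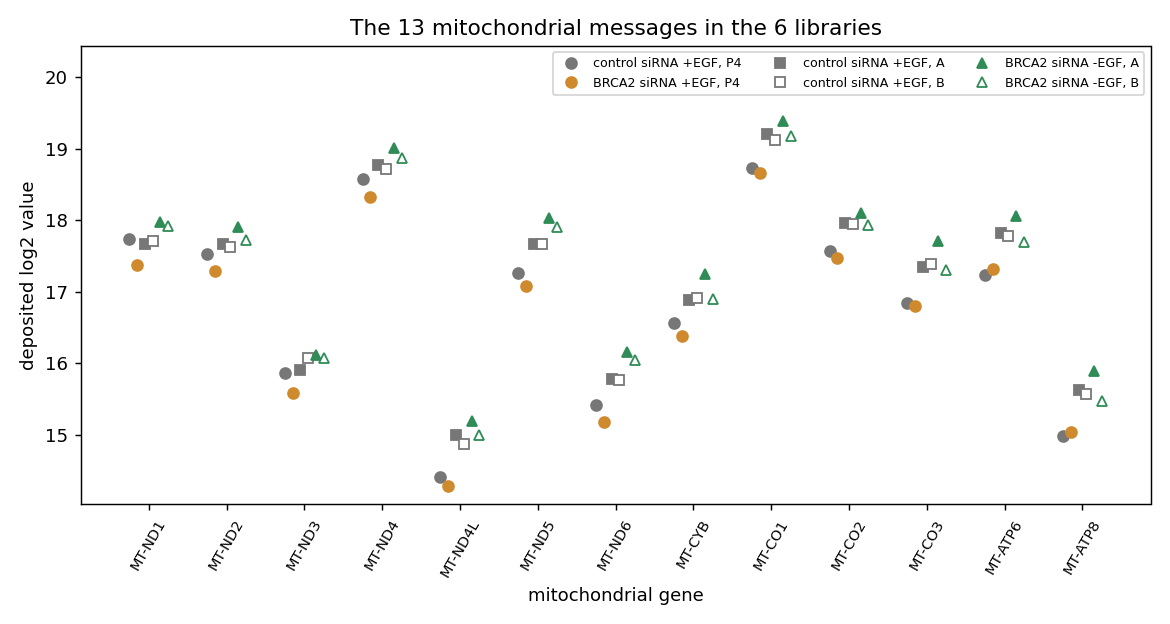
Deposited log2 value (vertical axis) of each of the 13 mitochondrial genes in the 6 libraries, 1 point for each library. The passage 4 libraries (circles) lie lowest for every gene but MT-ND1, and minus-EGF A (filled triangles) is highest for all 13.

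Per kilobase of transcript, the mitochondrial messages spanned a wide range although most are cut from 1 precursor. The mean level per kilobase, on the log2 scale, was highest for MT-CO1 (18.42), MT-CO2 (18.38), MT-ND4 (18.25) and MT-ATP6 (18.20), followed by MT-ND1 (17.79). It was lowest for MT-ND5 (16.74), MT-ND6 (16.65), MT-CYB (16.62) and MT-ND4L (16.54). The first 2 and the last 3 differ by less than their range over libraries, which was 0.54 to 0.98 for the mitochondrial genes. Of the nuclear genes, UQCRH was at 12.98 on the same scale.

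Nuclear complex I genes were lower without EGF in most cases, and the accessory subunits lay furthest from 0. NDUFAB1, the mitochondrial acyl carrier protein and a subunit of complex I, stood at 10.65 in control P4, 10.43 and 10.40 in controls A and B, 10.56 in BRCA2 P4, 9.86 in minus-EGF A and 9.90 in minus-EGF B. Both minus-EGF libraries lay below every other library. NDUFB4 stood at 9.43, 9.14, 9.20, 9.39, 8.85 and 8.52, and NDUFS5 at 11.74, 11.54, 11.56, 11.92, 11.40 and 11.05, in the same order. NDUFS4, an accessory subunit needed for the last steps of complex I assembly, stood at 11.33, 10.72, 10.69, 10.99, 10.52 and 10.68, with control P4 well above the rest. NDUFC2, a membrane-arm subunit, was lowest in control P4, at 6.37. It stood at 7.02 and 7.10 in controls A and B, 6.92 in BRCA2 P4, 6.82 in minus-EGF A and 6.85 in minus-EGF B. Its minus-EGF libraries thus lay below both passage 6 controls. NDUFA11 was low in both passage 4 libraries (5.31 and 5.44) and highest in minus-EGF A (5.79). NDUFA7, just inside the filter with a mean linear value of 11.9, ran from 3.20 in BRCA2 P4 to 3.82 in minus-EGF A. NDUFA13, just outside it at 7.92, was not counted.

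The 7 nuclear core subunits of complex I hold the flavin and the iron-sulfur clusters. Their median difference between the minus-EGF libraries and the controls was -0.19, with 6 of 7 below 0, beside -0.26 for all 36. Between control passages it was -0.23, beside -0.14 for all 36, so the core lay nearer to 0 in the first comparison and farther from it in the second. The difference between core and other subunits was not tested. NDUFS1, the largest of them, stood at 12.13, 12.15 and 12.17 in controls P4, A and B, 12.14 in BRCA2 P4, 11.91 in minus-EGF A and 11.80 in minus-EGF B. NDUFV1, which binds NADH, ran only from 11.37 to 11.54.

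Complex II, the succinate dehydrogenase, has no mitochondrial gene and followed the nuclear genes. SDHB, the iron-sulfur subunit, stood at 11.20 in control P4, 10.79 and 10.75 in controls A and B, 10.95 in BRCA2 P4, 10.46 in minus-EGF A and 10.498 in minus-EGF B. SDHC and SDHD, the membrane anchors, stood at 9.84, 9.75, 9.68, 9.95, 9.58 and 9.29 and at 9.998, 9.74, 9.80, 9.75, 9.64 and 9.56 in the same order. For these 3 genes both minus-EGF libraries lay below all controls. SDHA, the flavoprotein, stood at 12.56, 12.74, 12.76, 12.67, 12.60 and 12.25, so that control P4 lay between the minus-EGF libraries. Rows of SDHA pseudogenes passed the filter too (SDHAP4 at a mean linear value of 497 and SDHAP1 at 420), so the value of SDHA is uncertain by the reads they could share.

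In complex III, 2 of the 8 nuclear genes, UQCRH and UQCRB, stood out between control passages, at differences of -0.47 and -0.54. The other small subunits UQCR10, UQCRQ and UQCR11 were at -0.17, -0.19 and 0.08, and the core proteins UQCRC1 and UQCRC2 at -0.32 and -0.28. UQCRH, the hinge protein that docks cytochrome c1, stood at 12.68 in control P4, 12.19 and 12.23 in controls A and B, 12.67 in BRCA2 P4, 11.95 in minus-EGF A and 11.81 in minus-EGF B. UQCRB, which binds near ubiquinone, stood at 11.97, 11.48, 11.37, 11.75, 11.15 and 11.06 in the same order. In both genes the libraries fell into the same 3 pairs as the summed ratio, in the reverse order. UQCRC2, a core protein, ran from 11.41 in minus-EGF B to 12.02 in control P4. The other core protein, UQCRC1, was between 12.12 and 12.20 in the 5 libraries other than control P4, where it was 12.45. UQCR11 ran from 7.50 to 7.72, with no order by group.

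In complex IV, several subunits have alternative forms from separate genes, and the form known from most tissues was the one measured here. COX4I1, COX6A1, COX6B1, COX7A2 and COX7B passed the filter, while their counterparts COX4I2, COX6B2 and COX7A1 had mean linear values of 0.356, 4.15 and 3.68, and COX6A2 and COX7B2 were listed at 0 in all libraries. UQCRHL, a near copy of UQCRH in complex III, was at 1.37. COX6B1, which faces the intermembrane space, stood at 10.26 in control P4, 10.03 and 9.98 in controls A and B, 10.20 in BRCA2 P4, 9.74 in minus-EGF A and 9.13 in minus-EGF B. COX7A2 stood at 10.71, 10.68, 10.69, 10.70, 10.47 and 10.02, and COX7B at 10.59, 10.49, 10.47, 10.63, 10.37 and 9.86, in the same order. In these 3 genes minus-EGF B lay well below minus-EGF A, and both lay below every other library. COX4I1 stood at 12.46, 12.22, 12.21, 12.29, 12.04 and 11.95, and COX6A1 stayed between 9.15 and 9.40.

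COX7A2L, which takes part in joining complexes III and IV into supercomplexes, stood at 11.87 in control P4, 11.09 and 10.98 in controls A and B, 11.35 in BRCA2 P4, 10.76 in minus-EGF A and 11.07 in minus-EGF B. NDUFA4, now counted as a complex IV subunit, stood at 9.71, 9.79, 9.75, 9.80, 9.64 and 9.35. Its relative NDUFA4L2, known as a target of hypoxia signalling, was close to the filter with a mean linear value of 23.4, and stood at 4.68, 4.31, 4.30, 4.22, 4.20 and 5.25. The 2 minus-EGF libraries were thus the lowest and the highest for NDUFA4L2.

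**Figure D4:**
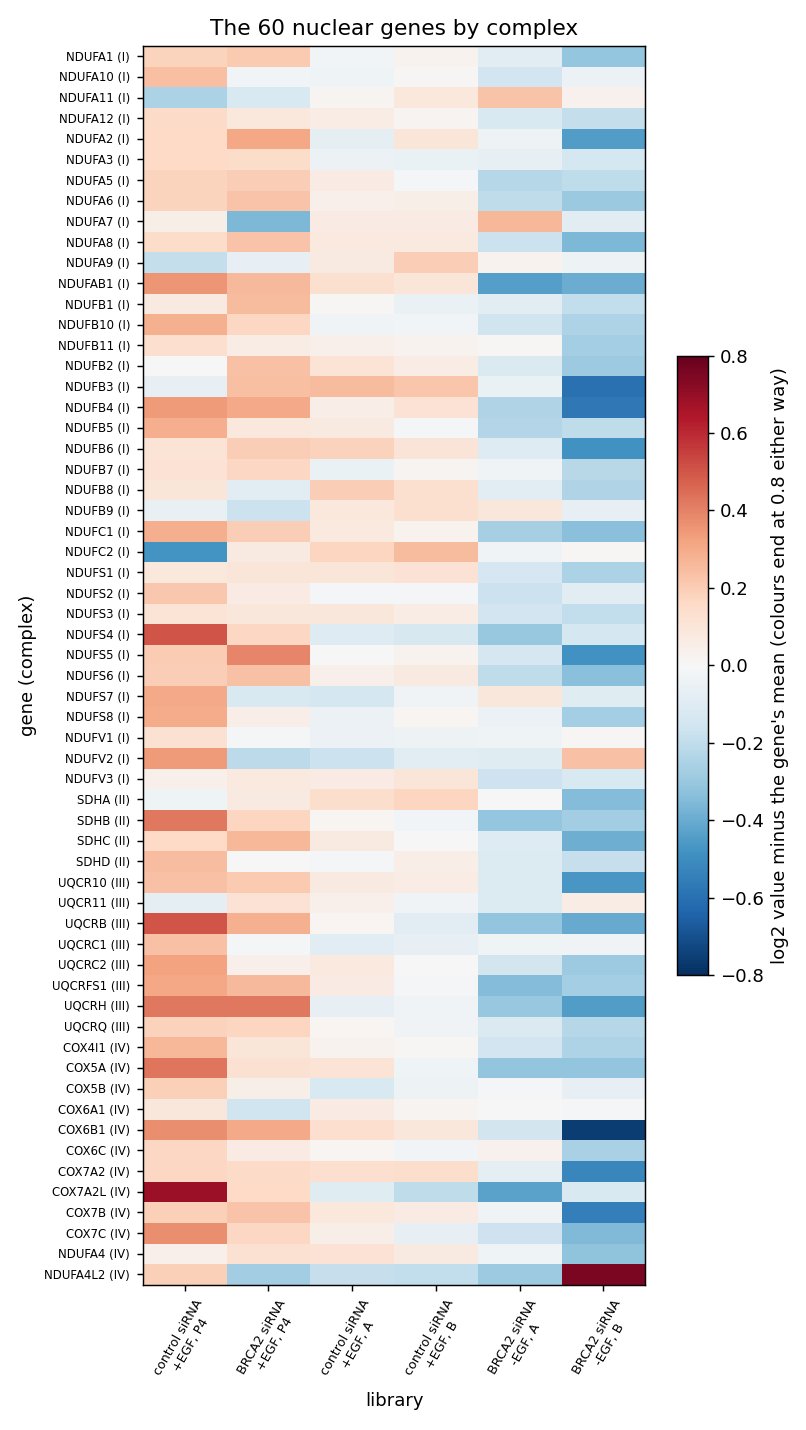
Log2 value minus the gene's mean over the 6 libraries (colour, red above and blue below) for the 60 nuclear genes (rows, with the complex in brackets) in each library (columns). Most rows are red in the 2 passage 4 columns and blue in the 2 columns without EGF. In the control P4 column 7 of the 60 genes lie below their mean, NDUFC2, NDUFA11 and NDUFA9 among them.

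The comparison of BRCA2 siRNA without EGF with control siRNA with EGF, fitted in limma over all 6 libraries as 3 groups, called none of the 73 genes at a Benjamini-Hochberg adjusted p below 0.05. Of all genes tested, 0.853% were called higher and 0.135% lower. At an unadjusted p below 0.05 there were 1 of 13 mitochondrial genes higher, MT-ND6, and 19 of 60 nuclear genes lower, beside 8.57% of all genes higher and 8.6% lower. The median difference was 0.26 for the mitochondrial genes (1.20 fold), with 13 of 13 above 0, and -0.27 for the nuclear genes (0.827 fold), with 54 of 60 below 0, beside -0.03 and 53.9% below 0 for all genes. MT-ND6 differed by 0.45 (SE 0.17; limma adjusted p = 0.26), NDUFAB1 by -0.61 (SE 0.13; limma adjusted p = 0.12) and COX6B1 by -0.65 (SE 0.21; limma adjusted p = 0.23). By complex the nuclear medians were -0.26 for I, -0.29 for II, -0.38 for III and -0.34 for IV.

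Within passage 6 the directions were the same and the mitochondrial difference was smaller. In a fit that gave each siRNA, medium and passage together its own level, 3.56% of all genes were called higher and 2.88% lower, and of the 73 genes only NDUFAB1 was called. It was lower by a difference of -0.53 (SE 0.07; limma adjusted p = 0.027). The mitochondrial median was 0.16, with 13 of 13 above 0, and the nuclear median -0.23, with 52 of 60 below 0. The 3-group fit without control P4 takes the difference and its spread from the same passage 6 libraries. It is thus nearly the same fit and no separate check. It called 1 of the 73 genes, and 951 of all genes tested in place of 146.

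The 2 comparisons with BRCA2 siRNA and EGF rest on the 1 library BRCA2 P4 and share its value or the controls with the comparison above. Against the 3 controls, 0% of all genes were called higher and 0% lower in limma, and the median differences were -0.37 for mitochondrial genes (13 of 13 below 0) and 0.04 for nuclear genes (39 of 60 above 0). None of the 73 genes had an unadjusted p below 0.05, beside 1.52% of all genes with a higher and 1.27% with a lower value. Against control P4 alone, in the fit with a level for each passage, 0% of all genes were called higher and 0% lower, at medians of -0.19 (11 of 13 below 0) and -0.06 (38 of 60 below 0). In that fit, 1 of the 73 genes was higher and 3 lower at an unadjusted p below 0.05, beside 9.11% of all genes higher and 14.2% lower. MT-ND1 differed by -0.36 (SE 0.10; limma adjusted p = 0.15) and NDUFC2 by 0.55 (SE 0.14; limma adjusted p = 0.14).

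Between the minus-EGF libraries and BRCA2 P4, 0.176% of all genes were called higher and 0.0271% lower in limma, and 0 of the 73 genes. At an unadjusted p below 0.05 there were 8 of 13 mitochondrial genes higher and 14 of 60 nuclear genes lower, beside 8.72% of all genes higher and 7.69% lower. The medians were 0.62 (13 of 13 above 0) and -0.30 (52 of 60 below 0). This comparison crosses medium and passage, which cannot be told apart in it. Without control P4, which is in neither group but sets the spread, more genes were called, both among the 73 genes and among all genes. The rise was thus not particular to the 73 genes. MT-ND6 differed by 0.93 and UQCRH by -0.79.

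Passage was compared within the controls, the 1 group present at both passages. Control A and control B against control P4 gave 8 calls among the 73 genes in limma. MT-ND5 rose by 0.40 (SE 0.09; limma adjusted p = 0.047), MT-ND4L by 0.52 (SE 0.12; limma adjusted p = 0.0495) and NDUFC2 by 0.69 (SE 0.12; limma adjusted p = 0.031) at passage 6. COX7A2L fell, with a difference of -0.83 (SE 0.15; limma adjusted p = 0.033), as did NDUFS4 (-0.62; SE 0.11; limma adjusted p = 0.030), UQCRB (-0.54; SE 0.10; limma adjusted p = 0.034), UQCRH (-0.47; SE 0.10; limma adjusted p = 0.043) and SDHB (-0.43; SE 0.09; limma adjusted p = 0.038). Of all genes tested, 7.71% were called higher and 12.4% lower, so 3 of 73 higher and 5 of 73 lower are not above the background. The median was 0.39 for the mitochondrial genes, with 12 of 13 above 0 and MT-ND1 at -0.06, and -0.17 for the nuclear genes, with 46 of 60 below 0.

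These 8 calls rest on 1 library at passage 4 and on the closeness of controls A and B. With A and B averaged into 1, without control A, without control B, or with no filter on low values, 0 of the 73 genes were called. Without either minus-EGF library, the spread rests on controls A and B alone. Most of the 73 genes were then called, as were most of all genes tested. Scaling to the sum without mitochondrial genes, or centring on library medians, turned the split of 3 higher and 5 lower into 6 higher and 3 lower: MT-CO1, MT-CO2 and MT-ND6 joined and SDHB and UQCRH dropped out.

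**Figure D5:**
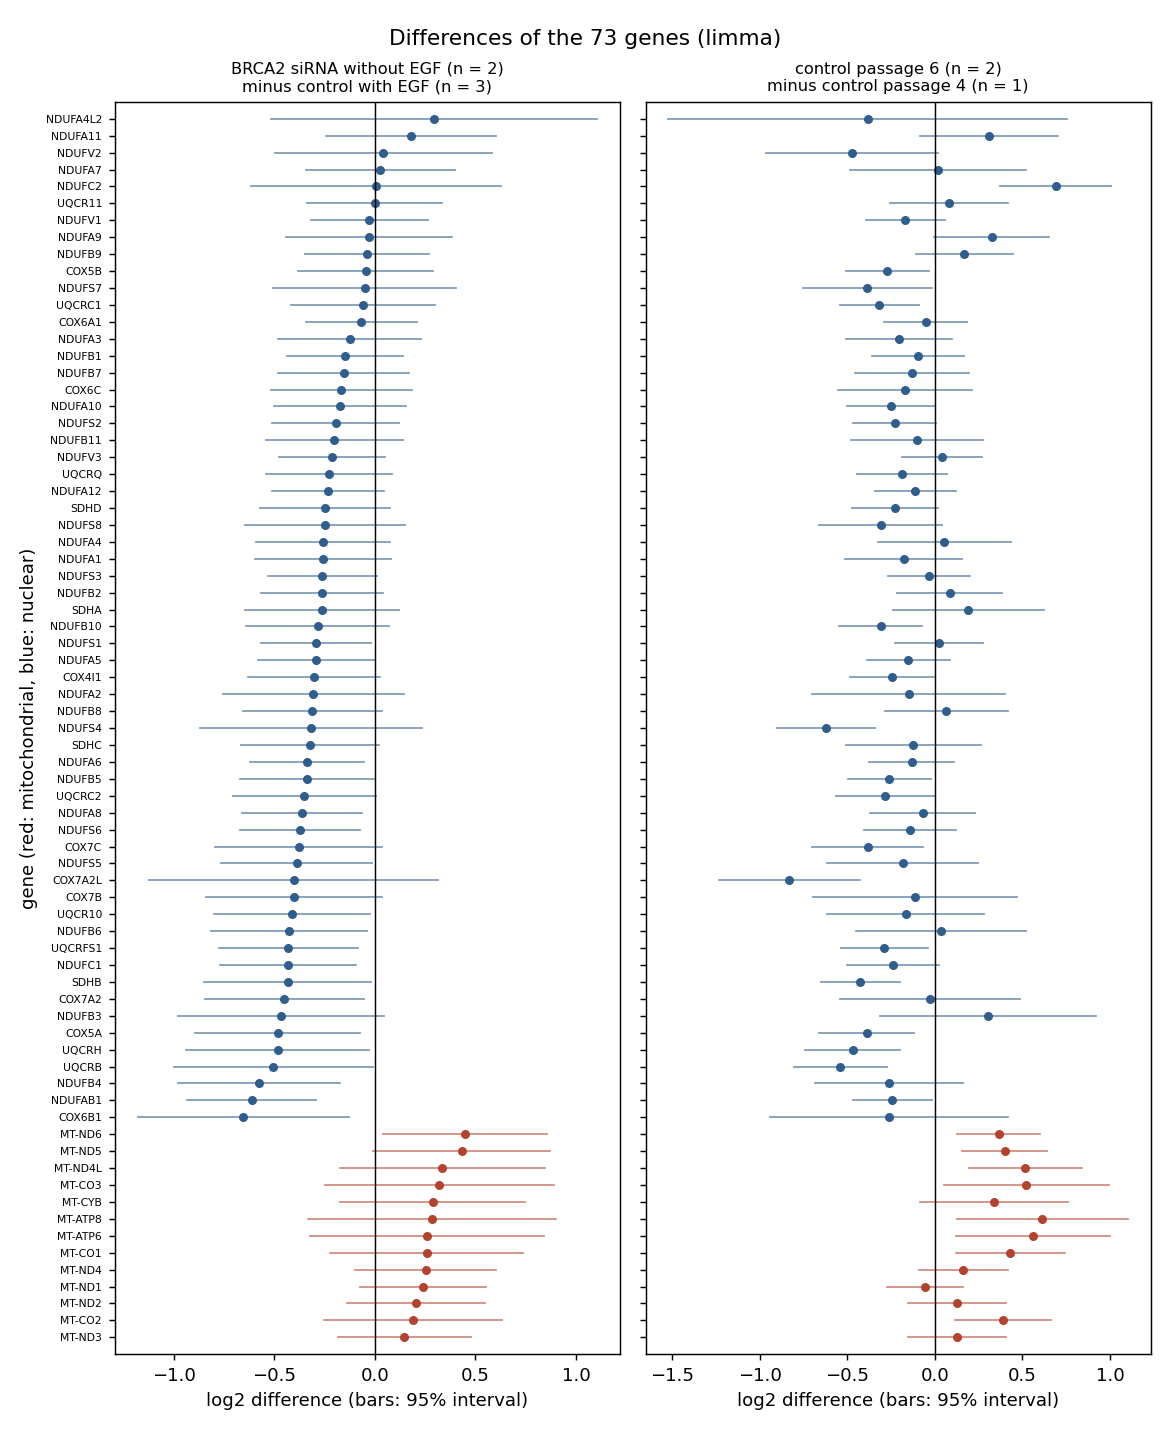
Log2 difference (horizontal axis) with its 95% interval from limma for each of the 73 genes, ordered by the left panel, for BRCA2 siRNA without EGF against control with EGF (left) and for control passage 6 against passage 4 (right). All 13 red points lie above 0 on the left, and 54 of 60 blue points lie below 0.

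Other mitochondrial gene lists were set beside the subunits to show how far the nuclear pattern reached, and in the 3-group fit none of their members was called in the comparison without EGF. The nuclear subunits of the ATP synthase had a median difference of -0.36, with 17 of 18 below 0. The tricarboxylic acid cycle and pyruvate dehydrogenase had -0.29, with 20 of 21 below 0, and outer membrane and import genes had -0.40, with 16 of 16 below 0. The median was -0.21 for assembly factors of complexes I to IV (36 of 45 below 0), -0.19 for genes that transcribe, replicate and process mitochondrial DNA and RNA (24 of 29), and -0.25 for carriers and subunits outside the naming rule (7 of 10). The nuclear regulators of mitochondrial biogenesis had a median of -0.11 (10 of 12 below 0). Between control passages the genes that transcribe, replicate and process mitochondrial DNA and RNA lay the other way from the nuclear subunits, with a median of 0.17 at passage 6 and 21 of 29 above 0.

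Within passage 6, limma called 6 of the 151 genes of these 7 lists lower without EGF (3.97%) and 0 higher. Of all genes 2.88% were called lower, so the share in the lists was near the background. The 6 were CYCS, cytochrome c itself, at -0.55 (adjusted p = 0.028), COX17, the copper chaperone of complex IV, at -0.58 (adjusted p = 0.040), and TFB1M, which methylates the small mitochondrial ribosomal RNA, at -0.65 (adjusted p = 0.038). The others were DLAT of pyruvate dehydrogenase at -0.49 (adjusted p = 0.032), PDK1, which inhibits that enzyme, at -0.53 (adjusted p = 0.034), and IDH3A of the tricarboxylic acid cycle at -0.55 (adjusted p = 0.045). TFAM, which packages and helps transcribe mitochondrial DNA, was at -0.43 and did not pass (limma adjusted p = 0.066), and the regulator NRF1 was at -0.12 (limma adjusted p = 0.39).

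Between passages of the control, 20 of the 151 genes were called lower (13.2%) and 4 higher (2.65%), beside 12.4% and 7.71% of all genes, so the lower calls were near the background. Of the ATP synthase 2 were lower, ATP5F1E (-0.40; limma adjusted p = 0.042) and ATP5MC2 (-0.63; limma adjusted p = 0.024). Of the carriers 2 were lower, among them CYC1, the cytochrome c1 of complex III (-0.39; limma adjusted p = 0.045), and 1 higher, GPD2, the glycerol phosphate dehydrogenase of the inner membrane (0.59; limma adjusted p = 0.030). Assembly factors gave 7 lower, NDUFAF2 (-0.67; limma adjusted p = 0.025) among them, and 2 higher, of which NDUFAF7 was at 0.55 (limma adjusted p = 0.032). The tricarboxylic acid cycle list and the outer membrane list gave 3 lower and 0 higher each, and the list for mitochondrial DNA and RNA gave 1 in each direction. The regulators ESRRA (-0.76; limma adjusted p = 0.025) and PPARA (-1.23; limma adjusted p = 0.023) were lower. These calls share the single passage 4 control with the 8 above.

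The ribosomal RNAs of the mitochondrion did not follow its messages between passages. MT-RNR1 and MT-RNR2 were at differences of -0.05 each between control passages (limma adjusted p = 0.73 and 0.83), where the messages had a median of 0.39. Without EGF they were at 0.13 and 0.38 (limma adjusted p = 0.62 and 0.31). Their share of the summed linear values was 1.24% in control P4, 1.26% and 1.25% in controls A and B, 1.10% in BRCA2 P4, 1.45% in minus-EGF A and 1.86% in minus-EGF B. In libraries made from bead-purified mRNA, how much ribosomal RNA is carried along can differ between preparations, and its part in the mitochondrial message shares was not tested.

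Promoters of nuclear subunit genes are known to be rich in sites of NRF1, of ETS factors such as GABPA, and of YY1, so these cores were counted in RefSeq promoters (GRCh38.p14, 250 bases before to 50 after the start), which were found for 50 of the 60 genes. The first promoter listed for each of these genes was used, while the background counted every promoter in the table, not 1 for each gene. The shares of genes and of promoters are thus in unlike units. On either strand, the NRF1 core GCATGCGC was in 9 of 50 (18.0%) against 3.05% of all 35116 promoters in the table. The ETS core CCGGAAG was in 13 of 50 (26.0%) against 10.3%, and the YY1 core AAGATGGC in 8 of 50 (16.0%) against 2.89%. At least 1 of the 3 was in 23 of 50 (46.0%) against 14.9%; an overlap of cores was not excluded. The median difference without EGF was -0.26 for the 23 genes with any core and -0.31 for the 27 without. It was -0.34 with and -0.28 without the NRF1 core, -0.26 with and -0.31 without the ETS core, and -0.09 with and -0.29 without the YY1 core. The YY1 medians lay farthest apart, over 8 and 42 genes, and the difference was not tested.

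The 150 bases before the start are printed for 4 of the genes named above, with matches to a core on either strand in capitals. The first is COX6B1 (lowest without EGF, chr19:35648173-35648322, plus strand). UQCRH (chr1:46303548-46303697, plus strand) and SDHB (chr1:17054033-17054182, minus strand) were both lower at passage 6. NDUFAB1 (chr16:23596317-23596466, minus strand) was called within passage 6.
COX6B1: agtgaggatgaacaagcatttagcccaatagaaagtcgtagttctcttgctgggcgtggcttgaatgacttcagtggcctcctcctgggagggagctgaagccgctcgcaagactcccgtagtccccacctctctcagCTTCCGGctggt
UQCRH: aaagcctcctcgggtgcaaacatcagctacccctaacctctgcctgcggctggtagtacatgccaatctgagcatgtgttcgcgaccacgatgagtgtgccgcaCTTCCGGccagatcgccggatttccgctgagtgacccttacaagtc
SDHB: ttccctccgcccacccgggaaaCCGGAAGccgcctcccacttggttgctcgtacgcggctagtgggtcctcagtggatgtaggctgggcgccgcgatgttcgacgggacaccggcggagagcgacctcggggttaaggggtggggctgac
NDUFAB1: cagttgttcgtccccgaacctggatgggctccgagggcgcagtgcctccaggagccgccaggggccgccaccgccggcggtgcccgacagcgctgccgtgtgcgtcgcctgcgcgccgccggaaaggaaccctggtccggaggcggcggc
The first 3 windows each hold an ETS core and that of NDUFAB1 holds none of the 3. These 4 genes do not stand for the 50 promoters, of which 13 held the ETS core. COX7A2L and NDUFS4, which also fell between control passages, have promoters with no ETS core. A match describes these letters and is no measured binding.

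Markers of other cell types also moved with the groups. The summed linear value of 7 fibroblast markers was 1645 to 1935 in the controls, 3628 in BRCA2 P4 and 5090 to 5411 in the minus-EGF libraries, led by COL3A1 (9.07, 9.48 and 9.93 in the controls, 11.34 and 11.56 without EGF) and COL1A1 (8.91 to 9.02, then 10.76 and 10.55). COL1A2 and PDGFRA of that list stayed below the filter. The 10 genes of the basal list, EGFR and TERT included, summed to 511744 to 547537 in the controls and 725977 to 768696 without EGF. The 8 luminal markers summed to 4090 to 4618 in the controls and 3010 to 3249 without EGF, and the 6 haematopoietic markers to 15.4 to 17.1 over all libraries. The 4 endothelial markers summed to 1102 in control P4, 285 and 313 in controls A and B, 373 in BRCA2 P4, 592 in minus-EGF A and 781 in minus-EGF B. Of these, CDH5 was at 0 in all libraries and VWF was below the filter. The sum was nearly all KDR, a receptor of VEGF, which fell between control passages, with a difference of -1.96 (limma adjusted p = 0.023), and was higher without EGF within passage 6 (1.23; limma adjusted p = 0.025). TEK was at -0.29 and 0.64 in the same 2 comparisons and passed neither (limma adjusted p = 0.46 and 0.13). The part of these shifts in the subunit values was not tested.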

How the data were processed

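ScriptSeq v2 libraries of bead-purified mRNA were sequenced, per the labels' protocols. The submitters' processing notes name TopHat2 2.0.11, DESeq2 and the build hg19. For the counter, the annotation and the log transformation, the method is not given in the sources used here. A single table of normalised log2 values was deposited by the authors, from -1.98 to 19.93, with 25986 rows at 0 in all libraries. Depth is unknown, so no count model was used. All 6 columns were matched to samples by name.

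The log2 values were fitted as they are with limma 3.58.1 (R 4.3.3; trend, robust prior, two-sided) over 14763 genes with a mean linear value of at least 10, with Benjamini-Hochberg adjustment over all of them and a threshold of 0.05. The 3-group fit has 3 residual degrees of freedom, and its spread includes that between passages within the controls. A fit with 4 levels of siRNA, medium and passage has 2, and gave the passage comparison and the comparisons within a passage. The procedure was run on simulated data with planted changes, which checked only that the median estimate lay near the planted size. Those data were independent normal values with no passage shift, so they do not speak to the calls made here. Groups with 1 library take their spread from the others.

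Symbols were matched on Ensembl identifiers (92.1% of tested genes), and 4 listed symbols were unmatched. Per-kilobase levels use the median GENCODE 29 principal transcript, so they depend on that choice. Of the nuclear genes, 16 share same-strand exons with another gene. Named genes are the 13 mitochondrial genes, complex II, alternative forms of a subunit, genes past the threshold, and the highest and lowest of each nuclear complex per comparison; NDUFS1, NDUFV1, NDUFA9, UQCR10, UQCRQ, KDR, TEK, TFAM and NRF1 were added after their values were seen. The members and lists were chosen with earlier results of these data known. Scaling, filter, prior, passage, averaging, block and left-out libraries were the alternatives. The control and minus-EGF A minus B differences correlated at -0.17 over genes. Each group gives only that single A minus B difference, so the correlation cannot show whether replicate letters pair the libraries. Control siRNA without EGF was not analysed here.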

Additional observations from a re-analysis of the deposited data

How the results depend on the processing

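The medians of the mitochondrial and of the nuclear genes kept their direction in every comparison under each alternative run, except the nuclear median of BRCA2 siRNA with EGF against control, which was -0.058 with a passage term and -0.0011 with the replicate block. Quantile normalisation forces equal top ranks and lowered the mitochondrial median to 0.034 without EGF against control and to 0.20 without against with EGF under BRCA2 siRNA. In the latter, the passage term subtracted the difference between control passages, which rests on control P4, and left medians of 0.36 and -0.16. That is another quantity than the plain difference, and the count given below for this comparison with a passage term is of the subtracted difference too. Between control passages, scaling without mitochondrial genes gave a nuclear median of -0.069.

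The number of all genes called without EGF against control (146) was 950 with a passage term, 959 in passage 6 libraries alone, 37 with controls A and B averaged, 87 with no filter, 94 with a mean of at least 50, and 0 to 951 with 1 library left out; of the 73 genes, a passage term or passage 6 alone called 1, and leaving out a library 0 to 1. Under BRCA2 siRNA without against with EGF (30 genes) it was 569 with a passage term, 11 averaged, 18 with no filter, 13 at 50, 56 without trend or robust prior, and 0 to 2404 with 1 library left out, of the 73 genes 0 to 19. Between passages (2963 genes, 8 of the 73) it was 9845 and 52 in the controls alone, 0 and 0 averaged, 0 and 0 with no filter, 5 of the 73 without trend or robust prior, and 0 to 9849 and 0 to 52 with 1 library left out. The cause of these changes was not tested.

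Whether libraries that share a replicate letter were paired could not be told. With the replicate block by letter, 6 genes were called without EGF against control and 0 under BRCA2 siRNA without against with EGF. A crossed pairing, chosen after seeing the data, called 112 and 10, and 5 of the 73 genes between passages. Depth is unknown, so its limits could not be computed, and low values such as those of NDUFA7 and NDUFA4L2 may be shrunk.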
